A study of Mus musculus with 8 samples.

Results

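The expression of 10 Polycomb genes was followed in mouse fetal liver myeloid progenitors that had received a virus carrying Trim27 or a control virus. The genes were taken by name from the count table, as a list drawn up with earlier results of these data known, and comprised 5 genes of Polycomb repressive complex 2 (Ezh1, Ezh2, Eed, Suz12 and Jarid2), 4 genes of Polycomb repressive complex 1 (Bmi1, Rnf2, Ring1 and Cbx7), and Asxl1. All 10 were found among the 33435 named genes of the table, and all 10 were among the 11040 genes with enough counts to be tested. One group held 4 libraries from hematopoietic stem and progenitor cells of C57BL/6J livers at E14.5 that were infected with Trim27 virus, and it was set against 4 libraries from the same kind of cells infected with GFP control virus. Myeloid progenitors were sorted after infection, so the cells of both groups had been exposed to a virus. The sources used here give neither the promoter of the virus nor the surface markers of the sort. Nothing in the labels ties the 4 libraries of a group to separate animals or cultures, and the p-values therefore speak of the spread among these 8 libraries alone, part of which may be technical. Polyadenylated RNA was sequenced after tagmentation with a transposase.

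Polycomb proteins keep developmental genes silent. Complex 2 trimethylates histone H3 through a catalytic subunit, EZH2 or its paralog EZH1, which is active only when bound to EED and SUZ12. Complex 1 ubiquitinates histone H2A through RING1 or RNF2, and in its canonical form a CBX protein such as CBX7 reads the mark left by complex 2, while BMI1 or another PCGF protein activates the RING subunit. ASXL1 belongs to a different complex, in which it activates the deubiquitinase BAP1 that removes the mark from H2A. In blood, EZH2 is the dominant methyltransferase of dividing progenitors, EZH1 is more prominent in resting cells, BMI1 is needed for stem cell self-renewal, and EZH2 and ASXL1 are recurrently mutated in myeloid malignancies.

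The libraries were separated mainly by group. Total counts were 10551137 to 16366571 in Trim27 libraries and 9257889 to 10747794 in GFP libraries, and 12962 to 13283 genes were detected in Trim27 libraries, against 11131 to 11850 in GFP libraries. Chi-square per degree of freedom was 2.64 to 10.95 between libraries of a group and 117.6 to 146.8 between libraries of different groups, so no pair looked like a library deposited in duplicate. Trim27 itself had 267.7, 310.7, 291.8 and 300.7 CPM (counts relative to the scaled library size) in Trim27 libraries, against 190.7, 183.8, 176.6 and 171.1 CPM in GFP libraries, with a log2 fold change of 0.70 (SE 0.05) that was 0.17 with the trend of changes with transcript length removed. The counts do not separate viral from endogenous Trim27. With edgeR's quasi-likelihood test and adjustment by Benjamini and Hochberg over all genes, 85.5% of the genes tested passed an adjusted p of 0.05, with 47.5% higher in Trim27 libraries and 38% lower, so a call by itself sets no gene apart here. With scaling by library size alone the median over all genes was a log2 fold change of 0.44, against 0.14 in the main scaling, and the share of calls that were rises to 66.9%, against 55.6%. The labelled cell type had its markers, with all 8 myeloid progenitor markers tested and summed levels of 2242 to 2481 CPM in Trim27 libraries and 1990 to 2105 CPM in GFP libraries. Of the 8, 5 fell (Mpo, Elane, Prtn3, Ctsg and Ms4a3), Csf2rb and Spi1 rose and Cebpa did not pass. The higher sum rested on Csf2rb, without which the others summed to 1109 to 1278 CPM in Trim27 libraries and 1511 to 1625 CPM in GFP libraries. Erythroid markers, of which 3 rose and 4 fell, summed to 1275 to 1451 CPM in Trim27 libraries and 1747 to 1796 CPM in GFP libraries, and megakaryocyte markers, of which 2 rose and 3 fell, to 757.1 to 794.3 CPM in Trim27 libraries and 972.7 to 1057 CPM in GFP libraries, so RNA of those lineages was present in both groups. B cell markers summed to 38.5 to 52.61 CPM in Trim27 libraries and 54.39 to 135.4 CPM in GFP libraries, with 5 of 7 tested markers lower. Summed T and NK cell markers were at 112.6 to 116.7 CPM in Trim27 libraries and 53.45 to 61.38 CPM in GFP libraries, with Gzmb higher and Lck and Nkg7 lower of the 3 tested. Alb, Ttr, Apob and Hnf4a of hepatocytes, C1qa, Cd163, Marco, Mrc1 and Vcam1 of macrophages, and Cdh5, Kdr, Col3a1, Sparc and Dcn of endothelial and stromal cells had no count in any library. The other markers of these lists went both ways. The macrophage marker C1qb had 8 counts over the GFP libraries and none over the Trim27 libraries. The stromal marker Col1a1 had 2 and none in the same order, and neither gene had enough counts to be tested. The macrophage marker Emr1 averaged 10.8 ± 1.07 CPM in Trim27 libraries and had no count in GFP libraries, and among hepatocyte markers Afp averaged 9.25 ± 1.14 CPM in Trim27 libraries and 1.42 ± 0.239 CPM in GFP libraries (SD, n = 4 each). Apoa1 (6.05 ± 0.797 CPM) and the stromal marker Col1a2 (1.96 ± 0.697 CPM) were likewise found in Trim27 libraries and had no count in GFP libraries, while the endothelial marker Pecam1 fell (-0.30). These lists summed to 9.69 to 11.9, 14.3 to 16.4 and 28.1 to 28.8 CPM in Trim27 libraries, for macrophages, hepatocytes, and endothelial and stromal cells in that order, and to 0 to 0.957, 1.2 to 1.7 and 28.8 to 37.1 CPM in GFP libraries. The part of the lineage markers that moved in the results below was not tested. In such bulk libraries fewer cells of a type and less RNA per cell cannot be told apart.

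Of the 5 complex 2 genes followed here, 4 fell and 1 rose with Trim27 virus. Ezh1, Ezh2, Suz12 and Jarid2 were lower by 2.47-fold to 5.59-fold, whereas Eed was higher by 1.83-fold. In complex 1, Rnf2 and Cbx7 were higher by 3.98-fold and 5.53-fold, Ring1 was slightly lower and Bmi1 did not pass the test. Asxl1 was lower by 4.58-fold. Of the 10 genes 3 rose, 6 fell and 1 did not pass, and the groups did not overlap for 8 of the 10, against 80.7% of all genes. The share of the 10 that were called was thus near the background share for both directions combined. When a fold change above 1.5 was required (glmTreat), 3 of the 10 rose and 5 fell, against 35.3% and 22.2% of all genes and 57.5% in both directions. Their median log2 fold change was -0.81, beside 0.14 for all genes tested.

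**Figure D1:**
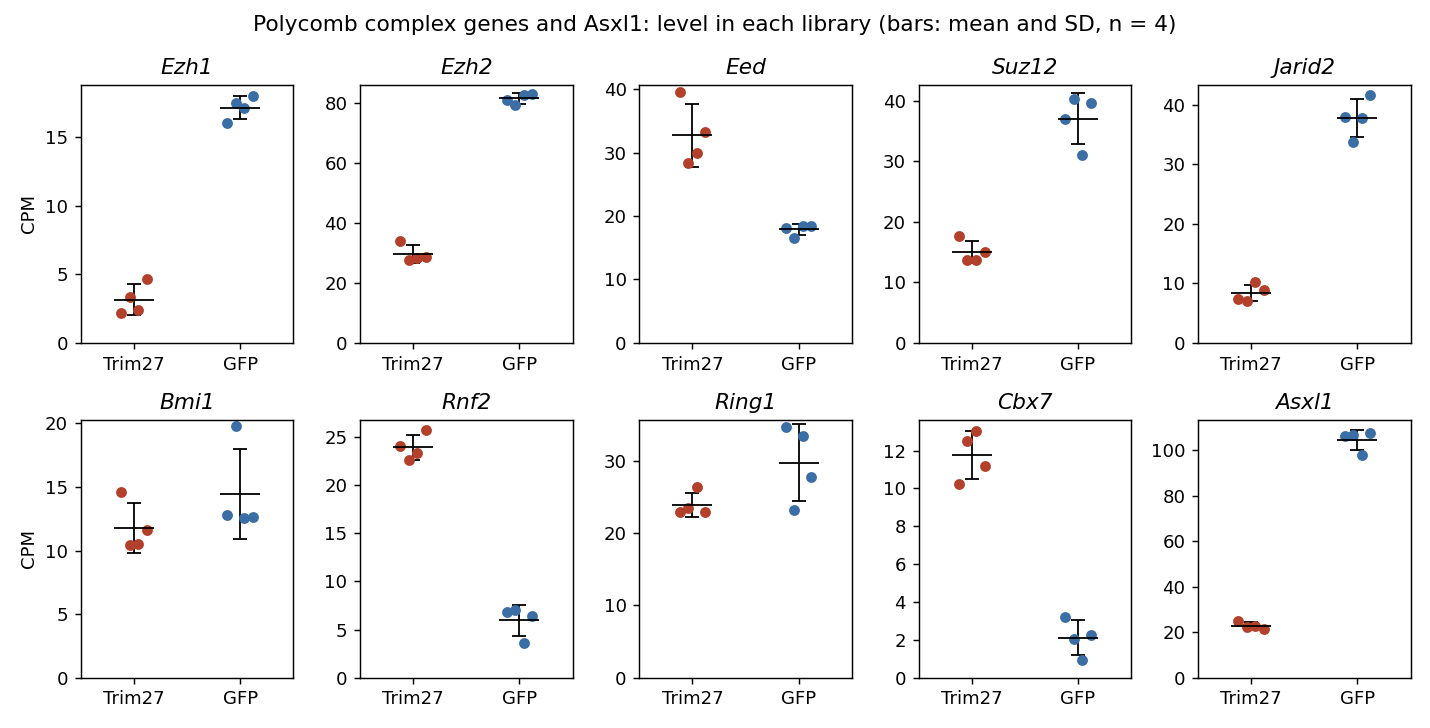
CPM of each Polycomb gene in the 4 Trim27 libraries (red, left) and the 4 GFP libraries (blue, right), each on its own axis from 0, with bars for the mean and SD. Ezh1, Ezh2, Suz12, Jarid2 and Asxl1 lay lower in every Trim27 library than in any GFP library, Eed, Rnf2 and Cbx7 lay higher, and Bmi1 and Ring1 overlapped.

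Among the methyltransferase genes, Ezh2 had 34.1, 27.6, 28.3 and 28.7 CPM in Trim27 libraries, against 81.1, 79.3, 82.6 and 83.0 CPM in GFP libraries. The GFP libraries lay within a narrow range and every Trim27 library was far below it. The log2 fold change was -1.46 (SE 0.08), with an adjusted p of 1.05e-16 by edgeR's quasi-likelihood test. Its paralog Ezh1 had 2.17, 3.37, 2.38 and 4.67 CPM in Trim27 libraries, against 15.99, 17.5, 17.1 and 17.99 CPM in GFP libraries. Ezh1 thus fell to a low level in every Trim27 library, and these varied more in proportion than the GFP libraries did. Its log2 fold change was -2.48 (SE 0.19, edgeR adjusted p = 5.53e-13).

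The obligate partners of the methyltransferase did not move together. Suz12, a subunit needed for the stability of the complex, had 17.6, 13.7, 13.6 and 15.02 CPM in Trim27 libraries, against 37.0, 40.2, 31.1 and 39.7 CPM in GFP libraries. Even the lowest GFP library lay well above every Trim27 library, and the log2 fold change was -1.31 (SE 0.11, edgeR adjusted p = 5.1e-12). Eed, which binds the methylated histone tail and stimulates the enzyme, had 39.5, 28.4, 29.9 and 33.2 CPM in Trim27 libraries, against 18.1, 16.6, 18.4 and 18.5 CPM in GFP libraries. It was the only one of the 5 complex 2 genes that was higher with Trim27 virus, with a log2 fold change of 0.87 (SE 0.11, edgeR adjusted p = 2.39e-08), and Trim27 replicate 1 was the highest library.

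Jarid2, a DNA-binding accessory subunit that recruits complex 2 to target genes, had 7.46, 7.04, 10.2 and 8.91 CPM in Trim27 libraries, against 38.0, 33.7, 37.8 and 41.6 CPM in GFP libraries. The groups were far apart, and the log2 fold change was -2.17 (SE 0.12, edgeR adjusted p = 4.44e-16).

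Of the paired ubiquitin ligase genes of complex 1, Rnf2 rose clearly and Ring1 was slightly lower. Rnf2, also called RING1B and the main ligase of the complex in mouse embryos, had 24.1, 22.6, 23.4 and 25.7 CPM in Trim27 libraries, against 6.86, 7.02, 3.59 and 6.38 CPM in GFP libraries. All Trim27 libraries were close to one another and above the GFP libraries, with a log2 fold change of 1.99 (SE 0.15, edgeR adjusted p = 4.86e-13). Its exons share 158 bases with Trmt1l on the opposite strand, which moved the other way (log2 fold change -1.33). The paralog Ring1 had 22.9, 23.5, 26.3 and 22.8 CPM in Trim27 libraries, against 34.6, 23.2, 33.4 and 27.8 CPM in GFP libraries. The groups overlapped through GFP replicate 2, and the fall was small, at -0.31 on the log2 scale (SE 0.11, edgeR adjusted p = 0.011). That call was lost without GFP replicate 1 (-0.23, adjusted p = 0.0602) and without GFP replicate 3 (-0.26, adjusted p = 0.0512), and with library size alone the value was -0.01 (adjusted p = 0.949).

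Cbx7, the chromodomain reader most often found in canonical complex 1 of stem cells, had 10.2, 12.5, 13.0 and 11.2 CPM in Trim27 libraries, against 3.20, 2.02, 0.957 and 2.26 CPM in GFP libraries. It was near the lower end of detection in GFP libraries, with 77 counts over the 4, and clearly present in Trim27 libraries, with 746 counts. The log2 fold change was 2.47 (SE 0.23, edgeR adjusted p = 2.89e-11). Cbx7 shares 100 exonic bases with the far more abundant Apobec3 on the opposite strand (log2 fold change 0.60), and the sources used here do not give the strand setting of the counting. Bmi1, which encodes the PCGF subunit best known in stem cells, had 14.6, 10.4, 10.6 and 11.6 CPM in Trim27 libraries, against 12.8, 19.8, 12.6 and 12.7 CPM in GFP libraries. GFP replicate 2 stood apart from the other GFP libraries, and the groups overlapped. The log2 fold change of -0.29 (95% interval -0.62 to 0.03) did not pass (edgeR adjusted p = 0.082). Without GFP replicate 2 it was -0.10 (adjusted p = 0.535), whereas it passed without Trim27 replicate 1 (-0.45, adjusted p = 0.00968), without GFP replicate 1 (-0.35, adjusted p = 0.0484) and without GFP replicate 4 (-0.36, adjusted p = 0.0493).

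Asxl1 was the most abundant of the 10 genes by counts in GFP libraries. It had 24.9, 22.3, 22.5 and 21.5 CPM in Trim27 libraries, against 106.1, 106.7, 98.05 and 107.4 CPM in GFP libraries. Its level was even within each group and the gap between groups was wide, with a log2 fold change of -2.19 (SE 0.07, edgeR adjusted p = 3.72e-21). Asxl1 shares 197 exonic bases with 2500004C02Rik on the opposite strand, which was far less abundant and rose (log2 fold change 3.08). The gene of its enzymatic partner, Bap1, was at 257.5 ± 14.4 CPM in Trim27 libraries and 245.4 ± 10.8 CPM in GFP libraries (SD, n = 4 each), and its log2 fold change of 0.07 (95% interval -0.04 to 0.18) did not pass the edgeR test (adjusted p = 0.211). The Bap1 value was 0.37 when scaled by library size and -0.43 in the fit corrected for length, both past the threshold. Within each library the ratio of Asxl1 to Bap1 counts per length was 0.0453 to 0.0579 in Trim27 libraries and 0.216 to 0.251 in GFP libraries, and the groups did not overlap.

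**Figure D2:**
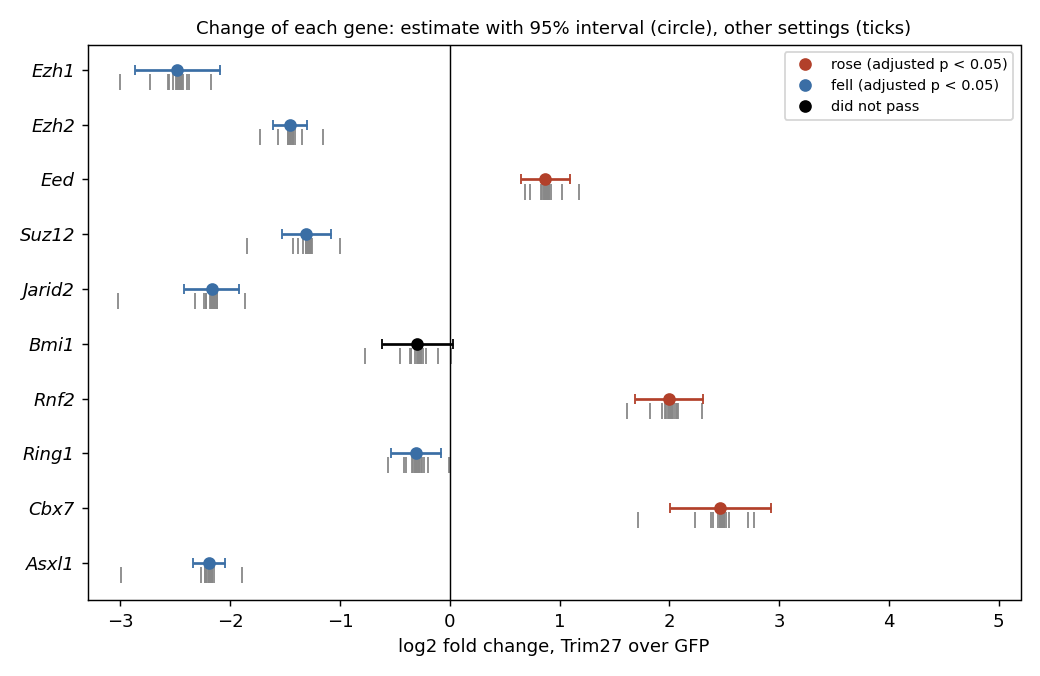
Log2 fold change of each Polycomb gene, Trim27 over GFP, as the main estimate with its 95% interval (circle and bar) and under the 19 other settings (grey ticks). For 9 of the 10 genes the ticks stayed on 1 side of 0, with Ring1 closest at -0.01, and those of Bmi1 crossed it, at 0.01 with library size alone.

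The order of the genes was compared per length, as CPM per kilobase of the longest annotated transcript. In Trim27 libraries Eed came first with 15.8 ± 2.39, followed by Ezh2 with 10.7 ± 1.07 and Ring1 with 9.35 ± 0.643, which did not differ beyond their spread, and by Rnf2 with 7.48 ± 0.412 CPM per kilobase (SD, n = 4 each). Suz12, Bmi1 and Asxl1 came next and could not be told apart beyond their spread, at 3.43 ± 0.429, 3.28 ± 0.544 and 3.27 ± 0.211. Cbx7 was at 1.94 ± 0.21, Jarid2 at 1.005 ± 0.171 and Ezh1 at 0.748 ± 0.272, the last pair being within their spread of each other. In GFP libraries Ezh2 was first with 29.2 ± 0.606, ahead of Asxl1 with 14.98 ± 0.629 and Ring1 with 11.7 ± 2.07. Eed (8.66 ± 0.428) and Suz12 (8.46 ± 0.957) lay together there, and so did Jarid2 (4.53 ± 0.387), Ezh1 (4.07 ± 0.201) and Bmi1 (4.02 ± 0.992). Rnf2 (1.86 ± 0.502) and Cbx7 (0.348 ± 0.152) were the lowest. Eed thus ranked 1 in Trim27 libraries and 4 in GFP libraries, and Rnf2 ranked 4 in Trim27 libraries and 9 in GFP libraries.

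Ratios between subunit genes within a library do not depend on how libraries are scaled. Counts of Ezh2 per Ezh1, per length, were 23.8, 12.4, 18.01 and 9.28 in Trim27 libraries, against 7.66, 6.86, 7.29 and 6.96 in GFP libraries. Ezh2 therefore exceeded Ezh1 in every library, by more in Trim27 libraries, which also scattered more and held 190 Ezh1 counts over the 4. Rnf2 per Ring1 was 0.839, 0.769, 0.709 and 0.898 in Trim27 libraries, against 0.158, 0.241, 0.0857 and 0.183 in GFP libraries, so that Ring1 was ahead of Rnf2 in all 8 libraries but only narrowly so in the Trim27 group. Eed per Suz12 averaged 4.61 ± 0.154 in Trim27 libraries and 1.04 ± 0.159 in GFP libraries, and Suz12 per Ezh2 averaged 0.321 ± 0.0123 and 0.29 ± 0.0358 in the same order (SD, n = 4 each). Suz12 and Ezh2 thus kept a similar proportion across the groups, with overlapping values, while Eed did not keep its proportion to either.

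**Figure D3:**
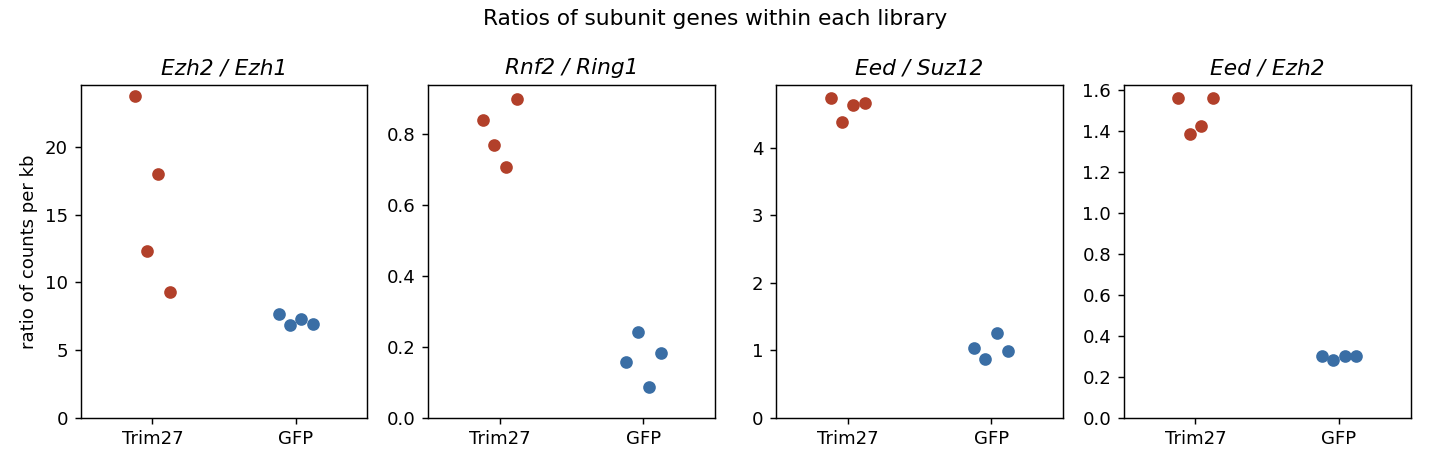
Ratio of counts per kilobase between 2 genes within each library, for the 4 Trim27 libraries (red, left) and the 4 GFP libraries (blue, right), with axes from 0. The groups did not overlap in the 4 ratios drawn, which are Ezh2 per Ezh1, Rnf2 per Ring1, Eed per Suz12 and Eed per Ezh2, and Ezh2 per Ezh1 spread from 9.28 to 23.8 in Trim27 libraries.

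Against genes of similar abundance, 6 of the 10 genes lay outside the interquartile range of changes. By definition as many genes lie outside such a range as inside it, so this count does not set the 10 genes apart. Between 4 and 6 log2 CPM, where Ezh2, Eed, Suz12, Jarid2, Rnf2, Ring1 and Asxl1 fall, the interquartile range of the log2 fold changes of 3378 genes was -0.59 to 0.96. Ezh2, Suz12, Jarid2 and Asxl1 lay below that range, Rnf2 above it, and Eed and Ring1 inside it. Between 2 and 4 log2 CPM, the range of Ezh1, Bmi1 and Cbx7, that of 2903 genes was -0.71 to 3.10, which holds Cbx7 and Bmi1 but not Ezh1. Over all genes the changes followed transcript length, and the median log2 fold change was -0.67 below 1000 bases, 0.27 for lengths of 2000 to 4000, and 0.55 for those of 4000 to 8000. The Polycomb genes that fell most were long, at 8353 bases for Jarid2, 6981 for Asxl1 and 4207 for Ezh1, so they ran against that trend. Of the genes that rose, Eed was 2067 bases long, Rnf2 3201 and Cbx7 6057. The part of length in these changes was not tested beyond a fit with the length trend removed, in which the log2 fold changes were 0.69 for Eed, 1.62 for Rnf2, 1.71 for Cbx7, -1.73 for Ezh2, -1.85 for Suz12 and -2.999 for Asxl1, and in which Bmi1 fell too (-0.77, adjusted p = 2.91e-05).

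**Figure D4:**
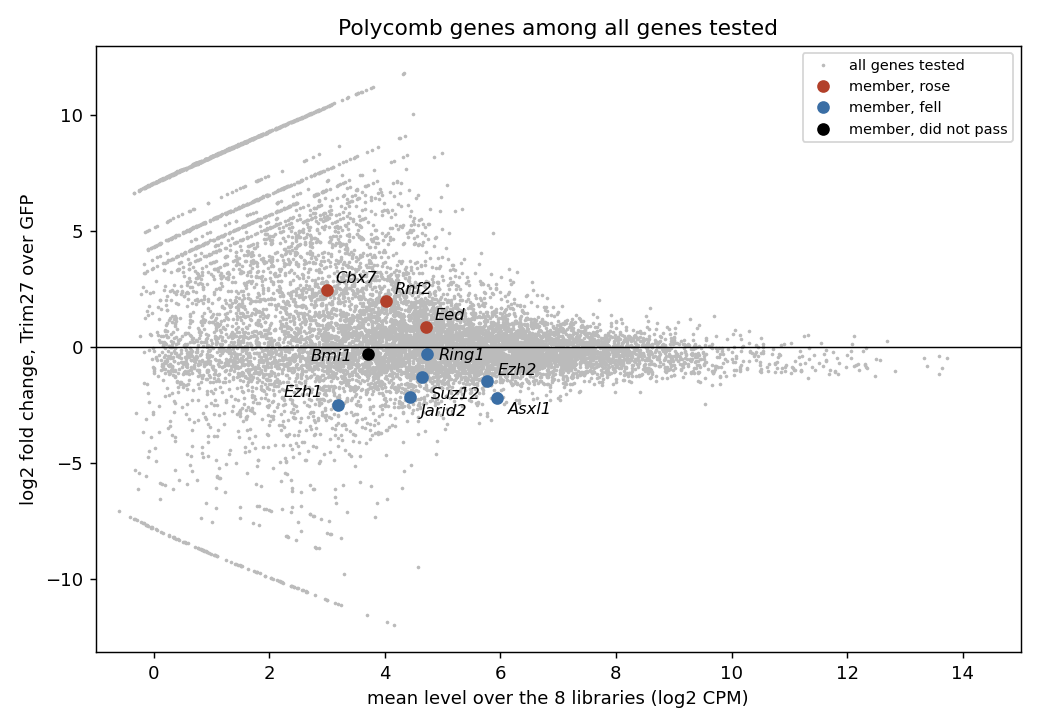
Log2 fold change, Trim27 over GFP, against the mean level over the 8 libraries in log2 CPM, for all 11040 genes tested (grey) and the 10 Polycomb genes (coloured by call). The straight streaks at the left are genes with no or few counts in 1 group, which are not among the Polycomb members, and the 10 genes lie between 2.99 and 5.95 log2 CPM.

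The start regions of the 10 genes were searched for a pair of textbook motifs, because E2F factors drive Ezh2, Eed and other replication-linked genes and because the ETS factor gene Spi1 is active in these cells. RefSeq promoters of build GRCm38.p6, from 250 bases before to 50 after the start, were found for all 10 genes. The E2F-type motif TTCCCGC, on either strand, was present for 2 of the 10 genes and in 4.6% of all 32851 promoters, and the ETS-type motif CCGGAAG was present for 1 of the 10 and in 8.86% of all promoters. Both genes with a match to TTCCCGC, Suz12 and Asxl1, fell, while the other genes that fell had no match to it in this window. Only that exact sequence was searched, so other forms of E2F site, in Ezh2 or elsewhere, were not counted. All 10 genes had CpG-rich start regions, with 13 to 41 CpG dinucleotides in 300 bases, beside a median of 7 over all promoters. The pair of promoters with matches is shown 5′ to 3′ on the gene's strand, with the matches in capitals, for Suz12 (chr11:79992856-79993155, plus strand) and Asxl1 (chr2:153345580-153345879, plus strand, whose second match is the ETS-type motif read on the opposite strand).
Suz12: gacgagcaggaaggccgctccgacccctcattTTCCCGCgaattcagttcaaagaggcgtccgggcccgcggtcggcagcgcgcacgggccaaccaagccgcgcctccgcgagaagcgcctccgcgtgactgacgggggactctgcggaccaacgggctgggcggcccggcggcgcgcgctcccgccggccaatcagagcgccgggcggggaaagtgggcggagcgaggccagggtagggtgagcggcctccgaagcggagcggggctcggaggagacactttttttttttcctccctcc
Asxl1: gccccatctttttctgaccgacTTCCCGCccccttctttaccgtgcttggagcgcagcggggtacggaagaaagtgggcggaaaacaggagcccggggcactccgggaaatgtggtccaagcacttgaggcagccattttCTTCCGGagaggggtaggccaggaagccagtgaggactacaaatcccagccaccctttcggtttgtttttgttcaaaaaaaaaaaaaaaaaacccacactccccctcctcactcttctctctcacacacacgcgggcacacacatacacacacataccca

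Among the other genes of complex 2 the share that rose was near that of all genes. Without the 5 genes above, 4 of 8 tested genes of this list rose, 1 fell and 3 did not pass. Of all genes tested, 47.5% rose and 38% fell. The median log2 fold change was 0.63 beside 0.14 for all genes, although the length-corrected fit gave 4 rises and 4 falls. Of the 4 rises, Phf19 and Lcorl could pass the filter only through the Trim27 group, given their low GFP counts. Rbbp7, a histone chaperone subunit, was at 349.1 ± 13.8 CPM in Trim27 libraries and 159.7 ± 7.22 CPM in GFP libraries (SD, n = 4 each; log2 fold change 1.13, edgeR adjusted p = 3.5e-18). Its paralog Rbbp4 was at 26.9 ± 0.739 and 24.6 ± 3.32 CPM in the same order and did not pass (0.13, edgeR adjusted p = 0.241), with values of 0.43 when scaled by library size and -0.45 in the length-corrected fit, both past the threshold. The Polycomb-like genes, whose products bring complex 2 to CpG islands, split. Phf19 had 18.5, 14.4, 16.9 and 17.1 CPM in Trim27 libraries, against 0.686, 0.638, 0.478 and 0 CPM in GFP libraries, a log2 fold change of 5.21 (SE 0.29). It was nearly absent from GFP libraries, with 16 counts over the 4. Mtf2 also rose (2.19, SE 0.16), whereas Phf1 fell to 8.36 ± 0.489 CPM in Trim27 libraries, against 40.9 ± 4.52 CPM in GFP libraries (-2.29, SE 0.11). Phf1 shares 39.3% of its exonic bases with the abundant Cuta on the opposite strand, which leaves its counts uncertain. Mtf2 was named after its values were seen, to complete the family. Lcorl, near the edge of detection in GFP libraries, rose as well, with 1239 counts in Trim27 libraries and 6 in GFP libraries (6.80, SE 0.34).

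In complex 1 the remaining genes were divided among paralogs. Of 14 tested genes besides the 4 above, 8 rose and 6 fell, with a median log2 fold change of 0.44. Among all genes tested 47.5% rose and 38% fell. The length-corrected fit gave 6 rises and 7 falls in this list, and a required fold above 1.5 gave 6 rises and 4 falls. The Polyhomeotic genes, whose products polymerise and cluster complex 1, all rose. However, Phc1 and Phc3, with 32 and 1 counts over the GFP libraries, could pass the filter only through the Trim27 group. The same held for Scml2, a further rise of this list, which had no count in GFP libraries. Phc1 had 23.6, 26.3, 25.7 and 21.0 CPM in Trim27 libraries, against 1.83, 1.06, 0.478 and 0.206 CPM in GFP libraries (4.76, SE 0.25). Phc2, the most abundant of the 3, was at 103.7 ± 9.52 CPM in Trim27 libraries and 56.2 ± 3.3 CPM in GFP libraries (SD, n = 4 each; 0.88, SE 0.07). Phc3 had 394 counts in Trim27 libraries and 1 in GFP libraries, a ratio of 226.2 with a 95% counting interval of 40.4 to 8957. Pcgf2, the closest paralog of Bmi1, fell to 2.06 ± 0.483 CPM in Trim27 libraries, against 15.8 ± 2.39 CPM in GFP libraries (-2.91, SE 0.20, edgeR adjusted p = 2.91e-14). The counts of Bmi1 per Pcgf2, per length, were 2.70 to 4.74 in Trim27 libraries and 0.523 to 0.757 in GFP libraries, so Bmi1 was the more abundant of this pair in Trim27 libraries and Pcgf2 in GFP libraries. Of further CBX genes, chosen after their values were seen, Cbx2 rose (1.64) while Cbx6 (-0.51) and Cbx8 (-1.46) fell, although Cbx6 did not pass with library size alone (-0.21, adjusted p = 0.105).

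Partners of the variant forms of complex 1 moved in both directions, and the balance depended on the scaling. The 11 tested genes gave 5 rises, 2 falls and 4 that did not pass (median log2 fold change 0.21). Of the 5 rises, Auts2 and Bcorl1 could pass the filter only through the Trim27 group, given their low GFP counts. Mga, with 56 counts over the GFP libraries, lay near the edge of the filter in that group. Over all genes tested 47.5% rose and 38% fell. Library size alone gave 8 rises and 1 fall, and the length-corrected fit gave 3 rises and 6 falls. E2f6, a repressive E2F that recruits a variant complex, fell to 26.8 ± 2.9 CPM in Trim27 libraries, against 79.5 ± 4.49 CPM in GFP libraries (-1.57, SE 0.08, edgeR adjusted p = 8.25e-17). Mga, which pairs with MAX in the same variant complex, rose (1.63, SE 0.27), and so did Bcorl1, which had 4 counts over the GFP libraries (3.80, SE 0.60). Auts2 had 463 counts in Trim27 libraries and none in GFP libraries, at least 88.6-fold higher against a floor of 3 counts over the GFP group. Such floors and counting intervals cover counting error only, and small counts (1 to 10) were mostly even numbers, at 64.7% to 67% of them in Trim27 libraries and 68.4% to 72% in GFP libraries. Counting each read of a pair separately would give such even counts, and the bounds would then be too high and the intervals too narrow.

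The partners of Asxl1 did not fall with it as a group. Besides Asxl1, the 8 tested genes of the deubiquitinase list gave 4 rises, 2 falls and 2 that did not pass (median log2 fold change 0.55). Rises made up 47.5% and falls 38% of all genes tested. The length-corrected fit gave 2 rises and 4 falls in this list. Mbd5, a BAP1-associated methyl-CpG-binding domain protein, fell to 0.498 ± 0.279 CPM in Trim27 libraries, against 14.1 ± 1.41 CPM in GFP libraries (-4.85, SE 0.28). Foxk2, a forkhead factor that recruits BAP1, fell too (-0.59, SE 0.06). Ogt, which encodes the O-GlcNAc transferase, was at 33.8 ± 3.99 CPM in Trim27 libraries and 13.5 ± 1.17 CPM in GFP libraries (1.33, SE 0.11; SD, n = 4 each), and its substrate gene Hcfc1 rose by 0.95 on the log2 scale, but by 0.10 in the length-corrected fit (adjusted p = 0.132). The paralog Asxl2 was at 11 ± 0.981 CPM in Trim27 libraries and 9.66 ± 0.775 CPM in GFP libraries and did not pass (0.19, edgeR adjusted p = 0.226, but 0.49 when scaled by library size and -0.64 in the length-corrected fit, both past the threshold), and Asxl3 had no count in any library.

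**Figure D5:**
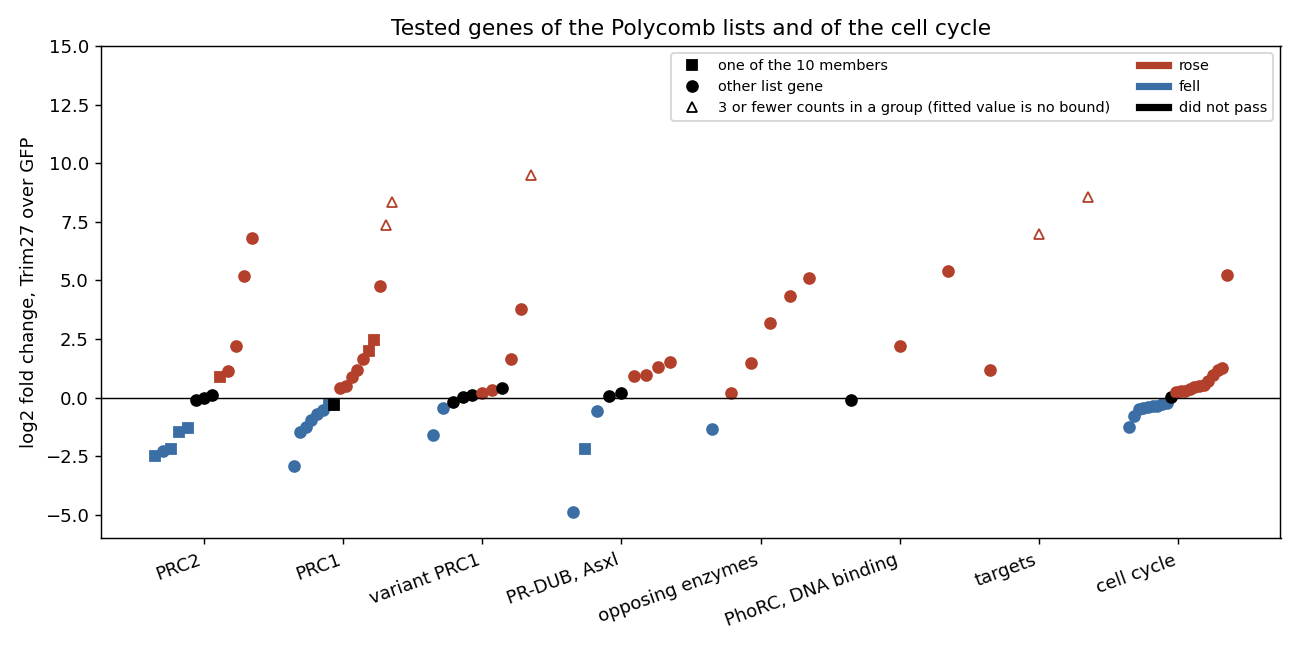
Log2 fold change, Trim27 over GFP, of every tested gene in 7 lists of Polycomb-related genes and in the cell cycle list, ordered by value within a list and coloured by call. Squares are the 10 Polycomb members and open triangles have 3 or fewer counts in a group; of the squares in the complex 2 list 4 of 5 lie below 0, while most other genes of that list lie at or above it.

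Among enzymes that remove Polycomb marks, 5 of 6 tested genes rose and 1 fell, against 47.5% and 38% of all genes tested. The median log2 fold change was 2.32, in a list whose genes were partly near the edge of detection in GFP libraries. Of the 5 rises, Kdm6a, Kdm6b and Mysm1, with 6, 32 and 8 counts over the GFP libraries, could pass the filter only through the Trim27 group. Of all genes tested, 58.5% rose below 2 log2 CPM (median 1.91) and 55% between 2 and 4 (median 0.65). The list summed to 139.6 to 146.1 CPM in Trim27 libraries and 119.8 to 133.7 CPM in GFP libraries. Kdm6a and Kdm6b encode the demethylases of the mark set by complex 2. Kdm6a had 5.595, 6.38, 5.96 and 6.45 CPM in Trim27 libraries, against 0, 0.426, 0.239 and 0 CPM in GFP libraries (5.12, SE 0.43), and Kdm6b had 9.39, 7.16, 8.01 and 7.98 CPM in Trim27 libraries, against 0.914, 0.426, 1.44 and 0.823 CPM in GFP libraries (3.19, SE 0.27). For both genes every Trim27 library exceeded every GFP library. Of the H2A deubiquitinases, Usp16 rose (1.46, SE 0.09), with 192 exonic bases shared with the abundant Cct8, while Usp3 fell to 26.5 ± 0.745 CPM in Trim27 libraries, against 66.5 ± 3.17 CPM in GFP libraries (-1.33, SE 0.08). Of the 3 tested genes for DNA-binding partners, Sfmbt1 (5.41, SE 0.31, with 12 counts over the GFP libraries) and Rest (2.20, SE 0.27) rose, against 47.5% of all genes tested. Both could pass the filter only through the Trim27 group, since not every GFP library held enough counts. Yy1 did not pass (-0.10, edgeR adjusted p = 0.437). However, Yy1 fell without Trim27 replicate 1 (-0.24, edgeR adjusted p = 0.0454) and in the length-corrected fit (-0.87). With library size alone Yy1 was at 0.21 (edgeR adjusted p = 0.106).

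Genes known as Polycomb targets mostly had no counts in either group. That need not mean that they were silent, since the strand setting and the handling of multiply matching reads are not given. Of 25 such genes, namely the Hox A and B clusters and 4 inhibitors of cyclin-dependent kinases, 18 had no count in any library, among them Hoxa9, Hoxa10 and Cdkn1c. Only 3 had enough counts to be tested and all 3 rose, but a gene absent from GFP libraries could pass the filter only through the Trim27 group. Cdkn1a, the gene of p21, was at 93.3 ± 5.68 CPM in Trim27 libraries and 41.3 ± 0.885 CPM in GFP libraries (SD, n = 4 each; 1.18, SE 0.07, edgeR adjusted p = 1.15e-15). Cdkn2b, the gene of p15 in the INK4 locus, had 3.85, 2.95, 4.14 and 4.33 CPM in Trim27 libraries and no count in any GFP library, at least 45.7-fold higher. Its neighbour Cdkn2a, a classic target of BMI1 and CBX7, was too low to be tested and was named after its values were seen. Cdkn2a had 59 counts over the Trim27 libraries and none over the GFP libraries, at least 11.3-fold higher. Other untested targets with counts went both ways. Hoxb4 had 14 counts in Trim27 libraries and none in GFP libraries, whereas Hoxb5 had 2 and 6 and Hoxa7 had 0 and 2 in the same order. Hoxa4 had 80 counts in Trim27 libraries and none in GFP libraries, at least 15.3-fold higher. Absence from 1 group was not rare, since 101 of the genes tested had no count over the Trim27 libraries and 532 had none over the GFP libraries.

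Cell cycle genes are given beside Ezh2, whose transcription is tied to proliferation. The 22 tested genes gave 12 rises, 9 falls and 1 that did not pass (median log2 fold change 0.26), beside 47.5% rises and 38% falls over all genes. The length-corrected fit gave 7 rises and 11 falls, and library size alone gave 13 rises and 3 falls. Top2a was at 120.7 ± 3.66 CPM in Trim27 libraries and 50.9 ± 3.02 CPM in GFP libraries (1.25, SE 0.06), and Plk1 (1.16, SE 0.06) and Ccnb2 (0.98, SE 0.05) rose as well (SD, n = 4 each). Ccne1, a cyclin of the entry into S phase, fell to 84.3 ± 2.67 CPM in Trim27 libraries, against 199.9 ± 14 CPM in GFP libraries (-1.25, SE 0.06). The list summed to 4714 to 4803 CPM in Trim27 libraries and 4351 to 4476 CPM in GFP libraries, so its total was higher in the libraries where Ezh2 was lower. Its part in the change of Ezh2 was not tested.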

How the data were processed

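The authors deposited raw counts, 1 row per gene symbol and 1 column per library. Per the submitters' processing notes, the tools were bcl2fastq, HISAT2 and featureCounts and the build was NCBIM37. The strand setting, versions and handling of multiply matching reads are not given in the sources consulted. A line with no gene name (0 counts) was left out.

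R 4.3.3 and edgeR 4.0.16 were used for the counts. Genes passing filterByExpr (minimum count 10, total 15) were TMM-scaled and tested 2-sided, without covariates, by edgeR's robust quasi-likelihood test, adjusted over all genes by Benjamini and Hochberg (threshold 0.05). SEs came from the fold change and its F statistic. The test was checked on simulated counts in which few of 9302 genes changed, in both directions. That check cannot speak to the scaling of these data, where 85.5% of the genes tested were called. Lengths (matched for 32993 genes) and exon overlaps came from GENCODE for GRCm38, another build, so no coordinates were joined to the counts.

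Named genes were Trim27, all 10 members and, from each list, up to 4 other genes past the threshold with the lowest p. Mtf2, Cbx2, Cbx6, Cbx8, Scml2, Rbbp4, Asxl2, Bap1, Mysm1, Yy1, Cdkn2a, Hoxa7, Hoxb4 and Hoxb5 were added after their values were seen. Members and lists were chosen with earlier results of these data known. Alternatives included DESeq2 1.42.0 and limma 3.58.1.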

Additional observations from a re-analysis of the deposited data

Results flagged for a closer look

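In 8 of the 77 sets of 4 libraries examined for the named genes, 1 library stood apart from the other 3 by Dixon's criterion, which chance alone would flag in about 1 of 20. Bmi1 was at 19.8 CPM in GFP replicate 2, against 12.6 to 12.8 CPM in the other GFP libraries. Ezh2 was at 34.1 CPM in Trim27 replicate 1, against 27.6 to 28.7 CPM in the other Trim27 libraries, and Asxl1 was at 98.0 CPM in GFP replicate 3, against 106 to 107 CPM in the others. Lcorl was at 24.7 CPM in Trim27 replicate 1, against 17.5 to 18.0 CPM, and Mga at 3.48 CPM in Trim27 replicate 4, against 5.11 to 5.30 CPM. Cdkn1a was lowest in Trim27 replicate 1 (84.8 CPM, against 95.4 to 96.8 CPM) and in GFP replicate 4 (40.0 CPM, against 41.6 to 41.8 CPM). Phc3 was at 0.12 CPM in GFP replicate 3, a single count, with none in the others.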

How the results depend on the processing

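The direction and call of Ezh1, Ezh2, Eed, Suz12, Jarid2, Rnf2, Cbx7, Asxl1 and Trim27 were the same under all 19 alternatives. Of these, 2 were chosen after seeing the data, namely removal of the trend with transcript length, fitted on all genes or on genes of at least 6 log2 CPM. Where a value below changed, the cause was not tested unless the alternative tests fewer genes or asks for a larger fold. Bmi1 was at 0.010 with library size alone, a turn of sign, and passed with the length trend removed (-0.77); leaving out 1 library gave -0.45 to -0.10. Ring1 did not pass with library size alone (-0.0079), with a fold above 1.5 required (-0.31) or with the abundant-gene length trend removed (-0.20); leaving out 1 library gave -0.42 to -0.23. With 10 CPM required in 4 libraries, which tests fewer genes, 3453 of all genes rose, and rises numbered 5 in complex 1, 2 in variant complex 1, 2 among opposing enzymes, 1 among DNA-binding partners and 1 among targets. No filter gave 5 rises among targets. With a fold above 1.5 required, 2452 of all genes fell, variant complex 1 had 3 rises and 1 fall, the deubiquitinase list 1 fall, and the cell cycle list 5 rises and 2 falls. With library size alone, variant complex 1 had 8 rises and 1 fall and the cell cycle list 3 falls. With the length trend removed, complex 2 had 4 falls, variant complex 1 had 3 rises and 6 falls, the deubiquitinase list 2 rises and 4 falls, DNA-binding partners 1 fall and the cell cycle list 7 rises. DNA-binding partners had 0 to 1 falls without 1 library. Of the genes outside the 10, Rbbp4 (-0.45), Asxl2 (-0.64) and Bap1 (-0.43) turned sign with the length trend removed and Yy1 (0.21) with library size alone. The replicate block gave 5133 rises and 4027 falls over all genes, against 5249 and 4193, and 3 rises and 6 falls among the 10, with no call among the 10 changed, and DESeq2 and limma gave the same 3 and 6; same-numbered libraries did not deviate together (correlations of -0.03 to 0.02), so these numbers were not treated as pairs. Low counts limit Cbx7, Ezh1 and Rnf2 most, with 77 counts of Cbx7 and 218 of Rnf2 over the GFP libraries and 190 of Ezh1 over the Trim27 libraries.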
